A study of Mus musculus with 31 samples.

Results

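Vitamin C (Vc) was compared with its absence in reprogramming cells that carried the Flag virus and were collected at day 8. The comparison set 2 libraries with Vc against 4 without it (2 with DMSO and 2 with DKG), which are 6 of the 31 RNA-seq libraries of the series. The members were chosen by virus, day and medium as the labels give them, not by any measured value. All 6 libraries came from mouse cells of the strain 129/OG2 at passage 0 in which reprogramming was induced by OKSM, the factors Pou5f1 (Oct4), Klf4, Sox2 and Myc, so OKSM and the Flag virus were shared by treated and control cells. Flag, an epitope tag, is taken here as the control for the Tet1CD virus, and DMSO as the vehicle. DKG and Tet1CD are written as in the labels, which spell out neither and give no doses. Each title carries the number 0824 or 0826, whose meaning is not stated, and each number holds 1 library of every medium, so the number served as a block. Beside them stand Flag cells at day 3 and Tet1CD cells at day 8 in the same 3 media (6 libraries each), 2 libraries of untreated fibroblasts (MEF, passage 2), 2 of untreated embryonic stem cells (ESC, passages 17 and 19), and 1 library each of MEF kept 3 days with DMSO or with Vc. Whether the 2 libraries of a group stem from independent cultures is not stated. The p-values therefore rest on library-to-library spread alone, part or all of which may be technical.

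Reprogramming replaces the fibroblast program with that of a pluripotent cell: matrix and contractile genes are silenced, epithelial genes come on, and the pluripotency network of Nanog, Esrrb and their partners is activated last. Vitamin C (ascorbate) keeps the iron of 2-oxoglutarate-dependent dioxygenases reduced. That enzyme family includes the TET enzymes, which oxidise 5-methylcytosine in DNA, the JmjC histone demethylases, and the prolyl hydroxylases that act on collagen and on HIF. In mouse fibroblasts ascorbate is known to raise the yield of reprogramming.

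Levels are given as CPM, counts scaled to a common library size with TMM factors, in the order 0824 and 0826. Fold changes are log2 values ± SE of Vc against the mean of DMSO and DKG, from edgeR's quasi-likelihood test with the number as a block within each day. A gene was called, and is written below as raised or lowered, at a Benjamini-Hochberg adjusted p under 0.05 over 14015 genes. Total counts of the 6 libraries lay between 3953297 and 6673669, at which 3 counts, the limit that a count of 0 allows, are 0.759 CPM or less. Pou5f1 lay between 1242 and 2264 CPM in the 6 libraries, against 3.38 CPM in MEF and 702 in ESC (mean of 2 libraries each). The counts add up reads of the introduced factors and of their endogenous counterparts. None of the 4 factors was called, and their fold changes lay between -0.06 (Myc) and 0.06 (Sox2). In bulk RNA, fewer cells of a type and less RNA per cell cannot be told apart, and this holds for every gene below.

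Promoter sequences of 4 pluripotency genes raised by Vc are shown first, as an example of the list with the most calls and because their promoters differ in make-up. They run 5′ to 3′ on the gene's strand from 250 bases before to 50 bases after the start (RefSeq, GRCm38.p6). In Utf1, Tdgf1 and Zscan10 the capitals mark CG pairs, the substrate of DNA methylation, and in Nanog they mark a joined Sox and octamer site.
Utf1 (chr7:139943606-139943905, plus strand): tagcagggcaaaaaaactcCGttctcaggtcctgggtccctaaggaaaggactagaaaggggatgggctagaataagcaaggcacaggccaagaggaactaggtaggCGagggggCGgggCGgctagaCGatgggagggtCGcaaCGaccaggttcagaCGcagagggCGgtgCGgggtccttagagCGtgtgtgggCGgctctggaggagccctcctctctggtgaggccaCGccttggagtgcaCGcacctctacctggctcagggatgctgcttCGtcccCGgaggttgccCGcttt
Tdgf1 (chr9:110946109-110946408, minus strand): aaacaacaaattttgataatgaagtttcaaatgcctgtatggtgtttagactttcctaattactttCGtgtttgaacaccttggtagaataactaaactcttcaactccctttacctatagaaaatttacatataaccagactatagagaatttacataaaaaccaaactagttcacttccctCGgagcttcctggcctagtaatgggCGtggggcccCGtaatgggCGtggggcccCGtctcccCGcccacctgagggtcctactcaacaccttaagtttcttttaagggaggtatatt
Zscan10 (chr17:23600576-23600875, plus strand): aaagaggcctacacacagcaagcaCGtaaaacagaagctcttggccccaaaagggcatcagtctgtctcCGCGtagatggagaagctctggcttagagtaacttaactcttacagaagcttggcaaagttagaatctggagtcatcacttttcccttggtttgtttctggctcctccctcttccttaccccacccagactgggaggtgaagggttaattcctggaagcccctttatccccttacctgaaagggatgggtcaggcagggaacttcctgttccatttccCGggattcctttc
Nanog (chr6:122707239-122707538, plus strand): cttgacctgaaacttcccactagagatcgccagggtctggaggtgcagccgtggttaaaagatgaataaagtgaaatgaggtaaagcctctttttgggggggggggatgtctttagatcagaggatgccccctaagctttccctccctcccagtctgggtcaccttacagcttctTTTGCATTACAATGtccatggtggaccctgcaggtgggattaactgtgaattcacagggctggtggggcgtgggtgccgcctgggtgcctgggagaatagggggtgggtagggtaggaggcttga
The Utf1 window held 17 CG pairs, that of Tdgf1 7 and those of Zscan10 and Nanog 4 each. The median was 7 over the genes of the table and 20 (quartiles 13 and 28) over the 10573 tested genes (75.4% of all tested) with a promoter in it. The joined site, a Sox motif and an octamer with 1 free base between them, was searched on both strands and lay on the strand opposite to Nanog. It lay inside the window shown, 75 to 62 bases before the gene start used for it, and 151 to 138 bases before the other listed start of Nanog. It contains the octamer core ATGCAAA, so the 2 motifs overlap. In the RefSeq table of 32851 promoters, 2 (0.00609%) held the joined site, both of them listed for Nanog, and 1520 (4.63%) held the octamer core. Neither DNA methylation nor factor binding was measured in the files used here. Of the 354 raised genes 247 (69.8%) had a promoter in the table. Those without one could not be examined and may differ, so no comparison of raised genes with all genes is drawn here.

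Vc raised 354 genes, 2.53% of those tested, and lowered 138, 0.985% of those tested, so 492 (3.51%) were called. Without Vc the median level was 14.6 CPM for raised genes, 71.2 for lowered genes and 26.6 over all genes tested. Raised genes had a median of 29.0 CPM with Vc and a median log2 fold change of 0.957. Of the raised genes, 170 rose more than 2-fold and 62 more than 4-fold. Lowered genes had a median of 44.2 CPM with Vc and a median log2 fold change of -0.654. Of these, 23 fell more than 2-fold and 0 more than 4-fold. Both Vc libraries lay beyond both controls of their own number, in the direction of the call, in 345 of the 354 raised and all 138 lowered genes, as they did in either direction in 34.0% of all genes tested. Since the calls came from these same libraries, the higher share among called genes follows largely from their selection. ESC stood above MEF in 71.2% of the raised genes, in 23.2% of the lowered ones and in 47.9% of all genes tested. Without the number as a block 6 genes were called, without the Vc library 0824 101, without the Vc library 0826 217, without the DKG library 0824 253 and without the DMSO library 0824 297.

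**Figure D1:**
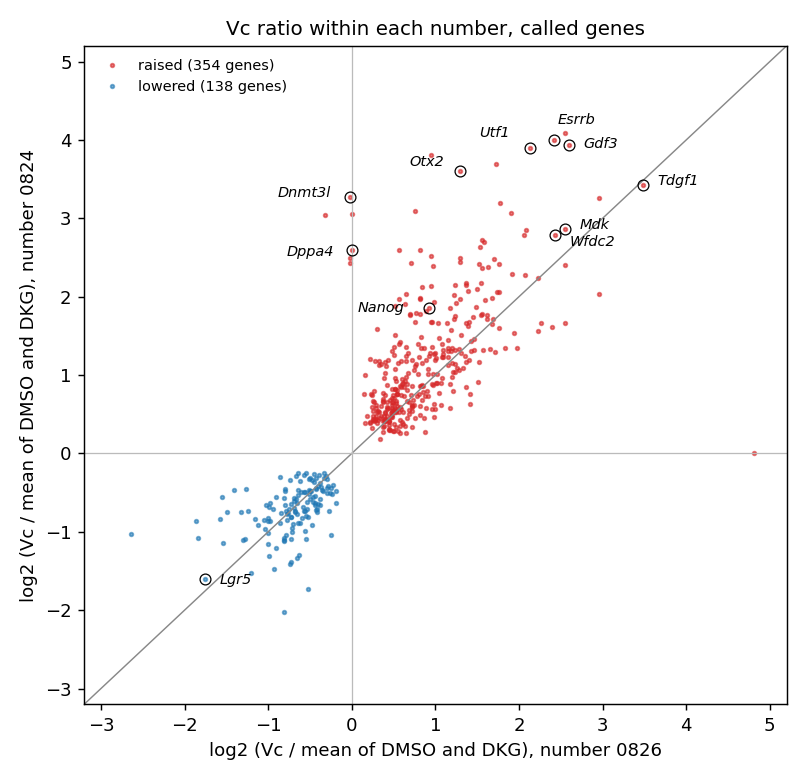
Log2 ratio of the Vc library to the mean of the DMSO and DKG libraries of the same number (0.5 CPM added), number 0824 against number 0826, for the 354 raised and 138 lowered genes. The line marks equal ratios. Circled genes are named in the text, and most raised genes lie above the line, with the larger ratio in 0824.

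The 2 numbers moved the same genes by different amounts. The median log2 ratio of the raised genes was 1.01 in 0824 and 0.751 in 0826, and 251 of the 354 had the larger ratio in 0824, as the plot of both ratios shows. For the lowered genes the medians were -0.681 and -0.649. Of the 28 raised pluripotency genes, 26 had the larger ratio in 0824.

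Pluripotency genes held the most calls of all lists examined. This and the other gene lists were written with earlier results of these data known. Their shares and medians beside all genes are therefore descriptions and not tests. Of 52 genes on the list 49 were tested, and 28 were raised and 0 lowered. The list's median log2 fold change was 1.52, against 0.01 over all genes tested. It stayed 1.52 with Dppa3 and Dppa4, which had 0 counts in every control, at their lower bounds. Both Vc libraries exceeded all 4 controls in 19 of the 28. Over all genes tested the groups did not overlap, in either direction, in 10.6%. The 28 were called from these same libraries, which favours groups that lie apart, so the 2 shares cannot be compared. The call count fell to 5 without the Vc library 0824 and was 23 without the Vc library 0826. It was 19 without the DMSO library 0824, 19 without the DKG library 0824, 12 with 1 block over both days and 1 without any block.

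Of the genes that act outside the cell or at its surface, Gdf3, a ligand of the TGF-beta family (chromosome 6, 122605403 to 122610087 in mm10), had 0.865 and 0.754 CPM with DMSO, 1.92 and 2.32 CPM with DKG and 28.6 and 11.8 CPM with Vc. Both Vc libraries were above every control by a wide margin. Its fold change was 3.95 ± 0.34 (adjusted p = 1.65e-06), and Vc brought the gene to 41.1% and 17.0% of its ESC mean. Tdgf1, the membrane-bound co-receptor of Nodal also called Cripto (chromosome 9, 110939603 to 110946158), had 1.87 and 0 CPM with DMSO, 4.42 and 0 CPM with DKG and 38.6 and 5.08 CPM with Vc. In 0826 it was not detected in either control, and its Vc level there was only a little above the DKG library of 0824. The fold change was 3.80 ± 0.44 (adjusted p = 5.03e-05). Lefty2, a secreted inhibitor of Nodal, had 1.44 and 0.251 CPM with DMSO, 0.576 and 0.773 CPM with DKG and 12.4 and 1.21 CPM with Vc. The Vc library 0826 lay within the range of the controls, so the groups overlapped. For Lefty2 the fold change was 3.02 ± 0.58 (adjusted p = 0.00610). Nodal itself, a ligand of the same family, had a fold change of 2.27 ± 0.71 and was not called (adjusted p = 0.0906). Mdk, a heparin-binding growth factor that was named by its fold change and not as a list member, had 2.59 and 3.27 CPM with DMSO, 4.61 and 6.44 CPM with DKG and 29.4 and 30.9 CPM with Vc. Both Vc libraries reached about the same level, the fold change was 2.95 ± 0.24, and the adjusted p was 8.37e-07. Tdgf1 lost its call without the Vc library 0824, and Lefty2 lost it without that library and also without the DMSO or DKG library 0824, while Gdf3 and Mdk kept theirs without any 1 of the 6 libraries.

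Transcription factors of the network rose from low levels. Nanog, a homeobox factor (chromosome 6, 122707489 to 122714633), had 11.8 and 3.52 CPM with DMSO, 15.2 and 4.90 CPM with DKG and 50.018 and 8.46 CPM with Vc. Each Vc library was above both controls of its number, but Vc in 0826 stayed below the controls of 0824, so the groups overlapped unless number was taken into account. The fold change was 1.64 ± 0.32 (adjusted p = 0.00566). Against the ESC mean of 551 CPM, Nanog stood at 9.08% in the Vc library 0824 and 1.54% in the Vc library 0826. The call was lost without any 1 of the 3 libraries of 0824.

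Esrrb, an orphan nuclear receptor (chromosome 12, 86361117 to 86521628), had 0.432 and 0 CPM with DMSO, 1.34 and 0 CPM with DKG and 21.6 and 2.18 CPM with Vc. The fold change was 4.71 ± 0.63 (adjusted p = 0.000277), and with Vc the gene stood at 4.13% and 0.416% of its ESC level. Zfp42 (Rex1), a zinc finger protein used as a marker of naive pluripotency, had 0.432 and 0.251 CPM with DMSO, 0.384 and 0.515 CPM with DKG and 11.2 and 2.42 CPM with Vc, a fold change of 4.01 ± 0.64 (adjusted p = 0.00120). In neither of these genes did the Vc and control libraries overlap. Zscan10, a zinc finger factor (chromosome 17, 23600856 to 23611019), had 1.87 and 0 CPM with DMSO, 0.769 and 0 CPM with DKG and 17.0 and 3.38 CPM with Vc. Its controls of 0826 held 0 counts, both Vc libraries were above all controls, and the fold change was 3.96 ± 0.45 (adjusted p = 5.03e-05). Utf1, a chromatin-bound coactivator (chromosome 7, 139943789 to 139945112), had 1.01 and 0 CPM with DMSO, 1.34 and 0 CPM with DKG and 24.5 and 1.69 CPM with Vc. Both Vc libraries were above all controls, at 70.3% of the ESC level in 0824 and 4.85% in 0826, and the fold change was 4.33 ± 0.41 (adjusted p = 4.12e-05). Of these genes Esrrb, Zfp42 and Utf1 lost their call without the Vc library 0824, and Zscan10 kept its call without any 1 of the 6 libraries. With the 6 Flag libraries of day 8 alone, Esrrb and Utf1 were too low to test.

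Further factors were raised. Tfcp2l1 rose from 17.4, 17.3, 17.9 and 21.9 CPM in the controls to 38.8 and 33.4 CPM, by 0.98 ± 0.19, with no overlap and like levels in both numbers. Klf2, a Krüppel-like factor that can stand in for Klf4 in reprogramming, rose by 1.68 ± 0.28, Sall4 by 1.74 ± 0.40 and Mycn by 2.65 ± 0.31. L1td1, an RNA-binding protein derived from a retrotransposon, was the most abundant raised member, with 160.4 and 96.0 CPM with DMSO, 208 and 99.2 CPM with DKG and 300.5 and 139 CPM with Vc, and rose by 0.63 ± 0.10. For L1td1, Sall4 and Nanog the Vc library 0826 lay below at least 1 control of 0824. Otx2, a homeobox factor of the primed state, had 2 counts in the 4 controls together, both in the DKG library 0824, and 7.92 and 0.725 CPM with Vc.

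Among the other pluripotency genes, Lin28a, which blocks maturation of let-7 microRNAs (chromosome 4, 134003330 to 134018841, antisense to exons of Gm13061), had 0.288 and 0 CPM with DMSO, 1.15 and 0.515 CPM with DKG and 16.6 and 0.967 CPM with Vc. The Vc library 0826 was below the DKG library 0824, and the fold change was 4.38 ± 0.56 (adjusted p = 0.000322). Dppa5a, an RNA-binding protein abundant in ESC, had 0.577 and 0 CPM with DMSO, 1.73 and 0 CPM with DKG and 27.6 and 2.42 CPM with Vc against 1088 CPM in ESC. It rose by 4.60 ± 0.78 (adjusted p = 0.00203) and stood at 2.54% and 0.222% of the ESC level. Lin28a and Dppa5a lost their call without the Vc library 0824. Dppa4 and Dppa3, both germ line and stem cell genes, had 0 counts in all 4 controls. With Vc they had 2.51 and 0 CPM and 2.51 and 0.242 CPM. Against a floor of 3 counts over the 4 controls together, the Vc mean was at least 8.37-fold higher for Dppa4 and at least 9.17-fold higher for Dppa3. Nearly all of those reads lay in the Vc library 0824, and the call of Dppa3 was lost without any 1 library but the DMSO library 0826. Over the 28 raised members the median share of the ESC level was 1.90% without Vc, 17.1% in the Vc library 0824 and 3.67% in the Vc library 0826. In 0824 Vc brought 2 of the 28, Otx2 among them, to the ESC level or above it, and in 0826 0 of them.

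**Figure D2:**
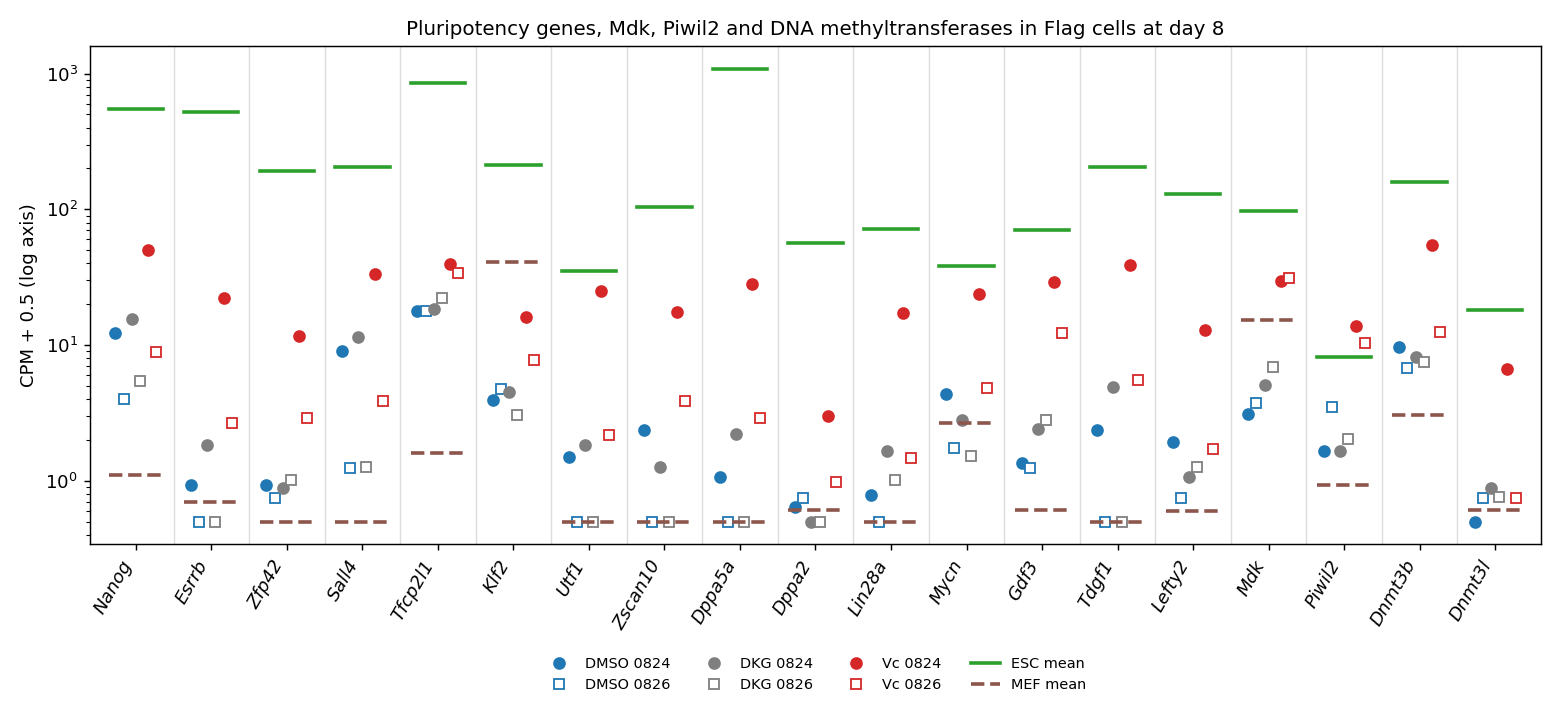
CPM plus 0.5 (log axis) of pluripotency genes, Mdk, Piwil2 and DNA methyltransferases in each Flag library of day 8, with the mean of 2 ESC libraries (solid line) and of 2 MEF libraries (dashed line). Red symbols (Vc) stand above blue (DMSO) and grey (DKG) ones of the same shape, except for Dnmt3l in 0826. Filled symbols (0824) with Vc are mostly higher than open ones (0826), while Mdk and Tfcp2l1 have both at like levels.

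Of the 49 tested members 45 had a fold change above 0, called or not. Over all genes tested 7305 of 14015 did, which also applies beside the like counts of the lists below. Among those not called, Dppa2 (4.55 ± 1.28, adjusted p = 0.0694) and Epcam (0.59 ± 0.17, adjusted p = 0.0705) came nearest to a call. Tet2 (-0.16 ± 0.13), Nr0b1 (-0.27 ± 0.34) and Alpl, the alkaline phosphatase stained to find colonies (-0.35 ± 0.15), had fold changes below 0 with adjusted p of 0.598, 0.774 and 0.246. Tcl1, Prdm14 and Fut4 were too low to test, and Tcl1 had 0 counts in all 6 libraries.

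The list of DNA methylation genes holds the enzymes that write, maintain and oxidise 5-methylcytosine, the TET enzymes included. Of its 24 genes, all tested, 6 were raised and 0 lowered, with a median of 0.07. Dnmt3b, a de novo methyltransferase (chromosome 2, 153649450 to 153687730), had 9.22 and 6.28 CPM with DMSO, 7.69 and 6.96 CPM with DKG and 53.9 and 12.1 CPM with Vc. Its Vc library 0824 stood far above the other 5, and the fold change was 2.07 ± 0.29 (adjusted p = 0.000282). Dnmt3l, its catalytically inactive partner, had 6.18 CPM in the Vc library 0824 and at most 0.384 CPM in any other, and its fold change was 3.99 ± 0.93 (adjusted p = 0.0227). Dnmt1, the maintenance methyltransferase, had 173 and 199.8 CPM with DMSO, 183 and 181 CPM with DKG and 238 and 237 CPM with Vc. The groups did not overlap, and the fold change was 0.38 ± 0.09 (adjusted p = 0.0174). Uhrf1, which guides Dnmt1 to hemimethylated sites, rose by 0.44 ± 0.10, the helicase Hells by 0.57 ± 0.14 and the co-repressor Trim28 by 0.29 ± 0.07. The list count was 0 without the Vc library 0824, 3 without the Vc library 0826, 1 without the DKG library 0824 and 2 without the DMSO library 0824. Without any block it was 0, and with 1 block over both days 0. Dnmt3b lost its call without the Vc library 0824, Dnmt3l without any 1 of the 3 libraries of 0824, Uhrf1 without either Vc library or either control of 0824, and Dnmt1 without any 1 library but the DMSO library 0826.

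The 3 TET genes were not called. Tet1 had 9.22 and 4.27 CPM with DMSO, 7.49 and 4.90 CPM with DKG and 32.1 and 5.80 CPM with Vc. The Vc library 0824 stood apart, the fold change was 1.57 ± 0.55 and the adjusted p was 0.143. Without that library the fitted Tet1 value was -0.57, a change of sign. The Vc library left in that fit, 0826, nevertheless stood above both controls of its own number. The block term of day 8 is shared with the Tet1CD libraries, so the turned sign is not a fall within 0826. Tet1 was called in 3 of 16 other settings. The Tet1 log2 fold change was 2.51 (adjusted p = 0.00428) without the Vc library 0826, 1.48 (adjusted p = 0.00519) with the 6 Flag libraries of day 8 alone and 1.57 (adjusted p = 6.78e-05) with no filter on low counts. Tet2 and Tet3 had fold changes of -0.16 and -0.09. Of 23 tested histone demethylases and other JmjC proteins, 0 were raised and 0 lowered, with fold changes from -0.27 (Kdm7a) to 0.37 (Kdm8). Of 29 germ line genes known to be silenced by DNA methylation, 10 were tested and 1 was raised. That gene was Piwil2, which encodes a PIWI protein that binds piRNAs (chromosome 14, 70372477 to 70429383). It had 1.15 and 3.02 CPM with DMSO, 1.15 and 1.55 CPM with DKG and 13.3 and 9.91 CPM with Vc, a fold change of 2.90 ± 0.31 (adjusted p = 2.93e-05). Both Vc libraries were above all controls and above the ESC mean of 7.62 CPM. Dazl, another gene of the list, had 0 counts in all 6 libraries against 21.002 CPM in ESC.

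Of 31 epithelial genes tested, 6 were raised and 0 lowered, and 25 had a fold change above 0, with a median of 0.65 against 0.01 over all genes. Cldn6, a tight junction protein of early embryonic epithelia, had 0.288 and 0 CPM with DMSO, 0.384 and 0 CPM with DKG and 7.15 and 1.21 CPM with Vc, and rose by 4.46 ± 0.57 (adjusted p = 0.000461). Krt18, a keratin of simple epithelia, had 3.75 and 4.27 CPM with DMSO, 4.42 and 3.61 CPM with DKG and 18.7 and 11.1 CPM with Vc. Both Vc libraries were above all controls, and the change was 1.93 ± 0.35 (adjusted p = 0.00324). Lama3, a laminin chain of the epithelial basement membrane, rose by 0.59 ± 0.13, and Spint1 and Krt7 by 1.11 ± 0.29 and 1.05 ± 0.28. Cdh1, E-cadherin, had 42.7 and 20.6 CPM with DMSO, 35.2 and 19.067 CPM with DKG and 79.6 and 29.5 CPM with Vc. Its Vc library 0824 was the highest, and the fold change of 0.87 ± 0.25 was not called (adjusted p = 0.0625). The list count was 1 without the Vc library 0824, 2 without the Vc library 0826 and 3 without the DKG library 0824, and it was 0 without any block and 2 with 1 block over both days. Cldn6 lost its call without the Vc library 0824, Krt18 without either Vc library, Lama3 without these or the DKG library 0824, and Krt7 without any 1 library but the DMSO library 0826. Of 18 keratinocyte genes 2 were raised (Krt17, 1.46 ± 0.24, and Sfn, 0.70 ± 0.17) and 0 lowered, with a median of -0.04. Krt17 lost its call without the Vc library 0824, and Sfn without either Vc library or either control of 0824.

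Interferon response genes, which cells switch on against viruses, formed the list with the next most raised members. Of 40 tested, 12 were raised and 0 lowered, and 36 had a fold change above 0, with a median of 0.65. The list medians of the within-number log2 ratios were near each other, at 0.70 in 0824 and 0.53 in 0826. Oas2, a synthase of the 2-5A messenger that activates RNase L (chromosome 5, 120730333 to 120749853), had 4.76 and 7.54 CPM with DMSO, 4.23 and 7.21 CPM with DKG and 20.3 and 26.1 CPM with Vc. The Vc libraries lay far above all controls, and above ESC (3.67 CPM) and MEF (2.33 CPM). Its fold change was 2.01 ± 0.25 (adjusted p = 0.000113). Its relatives Oas1a, Oasl2 and Oas1g rose by 1.46 ± 0.26, 2.02 ± 0.37 and 2.12 ± 0.49. RSEM shares reads between similar genes, and 57.6% of the 50-base stretches of Oas1a and 45.2% of those of Oas1g also occur in another gene, so their values are estimates.

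The other 8 raised members spanned sensing, signalling and effector roles. Ddx58 (RIG-I, a sensor of viral RNA) had 20.8 and 20.1 CPM with DMSO, 25.2 and 16.0 CPM with DKG and 51.2 and 23.2 CPM with Vc, a fold change of 0.86 ± 0.18. Irf9, the DNA-binding part of the complex that interferon activates, had 22.5 and 18.1 CPM with DMSO, 21.9 and 19.8 CPM with DKG and 30.5 and 32.4 CPM with Vc, a fold change of 0.62 ± 0.13 with all Vc values above all controls. Isg15, a ubiquitin-like modifier, rose by 1.46 ± 0.32 and Usp18, the protease that removes it, by 1.86 ± 0.47. Rtp4 rose by 2.33 ± 0.57, Xaf1 by 0.98 ± 0.24, and the GTPases Gbp3 and Irgm1 by 1.28 ± 0.26 and 1.08 ± 0.25. Stat2 (0.62 ± 0.21) and Ifitm3 (0.46 ± 0.16) were not called, at adjusted p of 0.129 and 0.143. Without the Vc library 0824 the count was 2, without the Vc library 0826 5, without the DMSO library 0824 5, without the DKG library 0824 6 and against DKG alone 4. It was 0 without any block and 0 with 1 block over both days. Oas2 kept its call without any 1 of the 6 libraries, and Oas1a, Oasl2 and Gbp3 lost theirs without the Vc library 0824.

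Genes of the fibroblast matrix made up most of the lowered list members. Of 23 collagens and lysyl oxidases 7 were lowered and 0 raised, with a median of -0.28. Col11a1, a chain of a fibril-forming collagen (chromosome 3, 114030540 to 114220718), had 68.3 and 242 CPM with DMSO, 70.9 and 269.8 CPM with DKG and 38.0 and 129.8 CPM with Vc. Within each number Vc lay well below both controls, while the libraries of 0826 stood far above those of 0824, so the groups overlapped. For Col11a1 the fold change was -0.92 ± 0.11 (adjusted p = 6.55e-05). Col3a1, a chain of another fibrillar collagen, had 294 and 975 CPM with DMSO, 345 and 895 CPM with DKG and 209 and 579 CPM with Vc, a fold change of -0.64 ± 0.11 (adjusted p = 0.00149). Lox, which cross-links collagen and elastin, had 282 and 453 CPM with DMSO, 286 and 439 CPM with DKG and 161 and 309 CPM with Vc, a fold change of -0.65 ± 0.11 (adjusted p = 0.00199). Col8a1 (-0.53 ± 0.11), Col1a2 (-0.48 ± 0.11), Col12a1 (-0.48 ± 0.12) and Col5a2 (-0.39 ± 0.10) were lowered too. Col1a1, the partner chain of Col1a2, had -0.31 ± 0.15 and was not called (adjusted p = 0.319), and the type VI chains Col6a1, Col6a2 and Col6a3 had fold changes of 0.15, 0.13 and 0.10. Without the Vc library 0824 the count was 2, without the Vc library 0826 3 and without the DKG library 0824 4. It was 0 without any block and 0 with 1 block over both days. Col11a1 kept its call without any 1 of the 6 libraries, Lox and Col8a1 lost theirs without the Vc library 0824 and Col3a1 without the Vc library 0826.

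Enzymes that hydroxylate collagen use ascorbate directly. Of 16 tested, 1 was lowered, P4ha1, the catalytic subunit of collagen prolyl 4-hydroxylase (chromosome 10, 59323296 to 59373304), and 0 were raised. It had 106 and 131 CPM with DMSO, 139.5 and 119 CPM with DKG and 73.0 and 77.8 CPM with Vc. Both Vc libraries were below every control, and the fold change was -0.70 ± 0.12 (adjusted p = 0.00203, and 0.126 without the Vc library 0824). Its relative P4ha2 had -0.58 ± 0.18 and was not called (adjusted p = 0.0920). P4ha1 is also a HIF target. Of 25 such targets 1, P4ha1, was lowered, and 0 were raised.

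Among 40 further fibroblast genes, 6 were lowered and 2 raised, with a median of -0.11. Tnc, the matrix protein tenascin C (chromosome 4, 63959785 to 64047015), had 647 and 1137 CPM with DMSO, 637 and 1027 CPM with DKG and 348 and 599 CPM with Vc. Vc lay below both controls in each number, at -0.86 ± 0.11 (adjusted p = 0.000103). The matrix genes Fbn1 (-0.48 ± 0.09), Dcn (-0.64 ± 0.12), Fbln5 (-0.69 ± 0.14) and Postn (-0.76 ± 0.17) and the cadherin Cdh11 (-0.56 ± 0.12) were also lowered. The 2 raised genes belong to the contractile apparatus of smooth muscle and activated fibroblasts. Cnn1, calponin, had 8.65 and 6.03 CPM with DMSO, 7.49 and 7.21 CPM with DKG and 23.2 and 19.098 CPM with Vc, with no overlap and a fold change of 1.52 ± 0.20 (adjusted p = 0.000202), and Acta2, smooth muscle actin, rose by 0.52 ± 0.13 (adjusted p = 0.0296). Thy1, the surface marker whose loss is used to follow reprogramming, had 54.2 and 139 CPM with DMSO, 70.7 and 114 CPM with DKG and 67.0 and 134 CPM with Vc, a fold change of 0.10 ± 0.14 (adjusted p = 0.796). The transcription factors of the mesenchymal state gave no call, with 0.16 for Twist1, 0.05 for Zeb1, -0.09 for Snai2 and -0.04 for Prrx1. Without the Vc library 0824 the lowered count was 1, without any block 0 and with 1 block over both days 2. Tnc and Cnn1 kept their calls without any 1 of the 6 libraries, Dcn lost its call without the Vc library 0824, and Fbn1 and Postn without either Vc library.

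The single libraries of MEF kept 3 days with DMSO or Vc, in which no reprogramming is labelled, give values without a replicate. P4ha1 stood at 299 CPM with DMSO and 155 with Vc, and Tnc at 6396 and 4314 CPM, lower with Vc as in the Flag cells. Col3a1, at 3779.5 and 5376 CPM, and Dcn, at 172 and 347 CPM, were higher with Vc there. Cnn1 stood at 163 and 109.7 CPM, lower with Vc and so the other way round from the Flag cells.

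**Figure D3:**
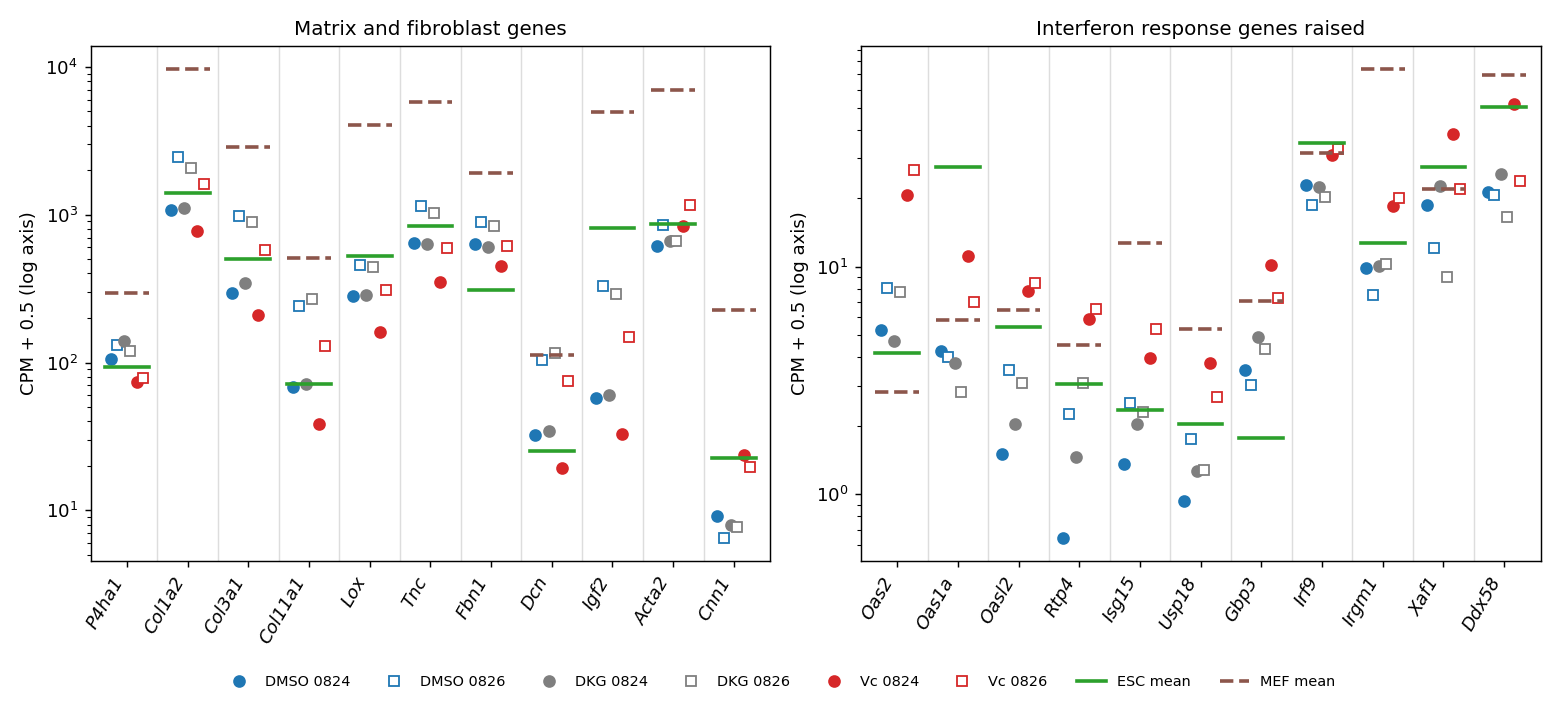
CPM plus 0.5 (log axis) in each Flag library of day 8 for matrix and fibroblast genes (left) and for interferon response genes that were raised (right), with ESC and MEF means of 2 libraries as lines. On the left, Vc (red) lies below the controls of the same shape except for Acta2 and Cnn1. On the right, both red symbols lie above the controls of their number for each gene.

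The 12 steepest genes of each direction were taken among called genes changed beyond both controls in both numbers at 5 CPM or more. The 12 lowered ones were of mixed function and had smaller fold changes than the 12 raised ones. Lgr5, a receptor for R-spondins that strengthens Wnt signals (chromosome 10, 115450311 to 115587780), had 5.04 and 20.1 CPM with DMSO, 5.19 and 16.5 CPM with DKG and 1.35 and 5.08 CPM with Vc. Each Vc library lay far below the controls of its number, and that of 0826 stood at the level of the 0824 controls, with within-number log2 ratios of -1.60 and -1.75, and the fold change was -1.86 ± 0.33 (adjusted p = 0.00236). Csn1s1, a milk casein, had 7.64 and 7.04 CPM with DMSO, 5.19 and 7.21 CPM with DKG and 2.90 and 0.725 CPM with Vc, a fold change of -1.79 ± 0.45. Gpr50, a receptor related to those of melatonin, had 55.1 and 20.9 CPM with DMSO, 47.3 and 19.067 CPM with DKG and 23.0 and 6.53 CPM with Vc, a fold change of -1.29 ± 0.19 (adjusted p = 0.000684). Narf, a nuclear protein that binds prelamin A, had 33.3 and 12.8 CPM with DMSO, 47.1 and 10.6 CPM with DKG and 18.7 and 2.90 CPM with Vc, with the steeper fall in 0826 (-1.28 ± 0.20, adjusted p = 0.000919). Robo2, a receptor for Slit guidance cues, stood at -1.11 ± 0.20, the adhesion molecule Alcam at -1.27 ± 0.32 and the homeobox factor Prox1 at -1.29 ± 0.32. Arxes1 (-1.50 ± 0.37), Pi16 (-1.31 ± 0.26), Accs (-1.23 ± 0.24) and the noncoding D330041H03Rik (-1.14 ± 0.29) also belong to the 12. Exons of Pi16, Prox1 and D330041H03Rik overlap antisense genes and 38.9% of the 50-base stretches of Arxes1 occur elsewhere, so reads of these genes cannot be fully told from those of their partners. Gpr50 and Narf kept their calls without any 1 of the 6 libraries. Lgr5 and Pi16 lost theirs without the Vc library 0826, Accs and Robo2 without the Vc library 0824, and Alcam, Arxes1, Csn1s1, D330041H03Rik and Prox1 without 3 or more libraries, taken out 1 at a time.

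Wfdc2, a secreted protein with whey acidic protein domains, was the remaining member of the 12 raised genes named by that rule. Some raised genes outside the rule, such as Cldn6 and Otx2, had larger fold changes. It had 2.88 and 5.78 CPM with DMSO, 3.46 and 1.55 CPM with DKG and 24.9 and 22.0 CPM with Vc, with both Vc libraries above all controls and a fold change of 2.85 ± 0.34 (adjusted p = 6.86e-05). Gdf3, Mdk, Piwil2 and Wfdc2 were the 4 named genes that stayed called under each of the 16 other settings tried, among them the fits without 1 of the 6 libraries and without the block.

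**Figure D4:**
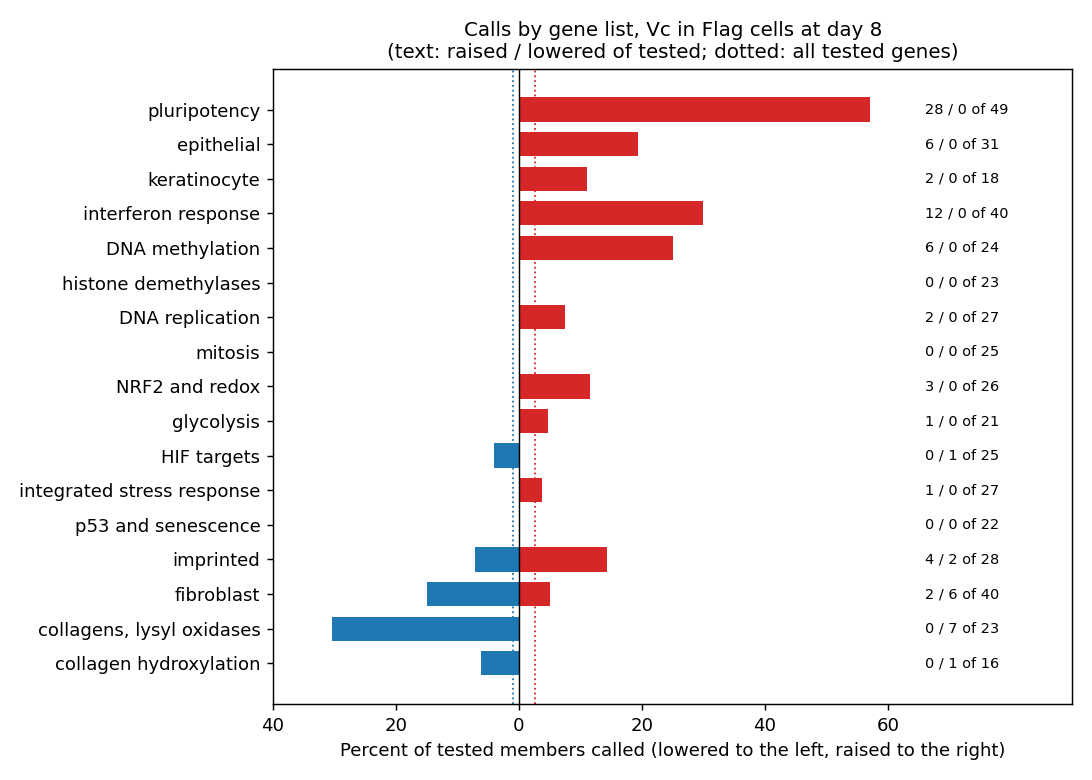
Percent of tested members of each gene list that were raised (right, red) or lowered (left, blue) by Vc, with counts as raised, lowered and tested. Dotted lines mark the same percentages over all tested genes, 2.53% and 0.985%. The lists were written with earlier results of these data known. Of the lists drawn, pluripotency, interferon and DNA methylation genes reach furthest to the right and collagens and lysyl oxidases furthest to the left.

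Imprinted genes went both ways, 4 raised and 2 lowered of 28. Peg10, derived from a retrotransposon, had 56.5 and 43.7 CPM with DMSO, 56.1 and 42.8 CPM with DKG and 135 and 61.4 CPM with Vc, a fold change of 0.95 ± 0.14 (adjusted p = 0.000472). Rian and Mirg, noncoding RNAs of the maternal Dlk1-Dio3 locus, rose by 0.61 ± 0.13 and 0.94 ± 0.26, and Meg3 from the same locus had 0.38 ± 0.18 and was not called (adjusted p = 0.316). Igf2, a fetal growth factor, had 57.5 and 327 CPM with DMSO, 59.6 and 292 CPM with DKG and 32.3 and 149 CPM with Vc. Its level was far higher in 0826 than in 0824, and Vc lay well below the controls in both. The fold change was -0.95 ± 0.21 (adjusted p = 0.0156). Its clearance receptor Igf2r had -0.36 ± 0.08. H19, the noncoding neighbour of Igf2, had -0.73 ± 0.20 and was not called (adjusted p = 0.0524). Peg10 lost its call without the Vc library 0824, Rian without either Vc library or the DKG library 0824, and Igf2 and Igf2r without either Vc library or the DKG library 0826. Igf2 lost it also without the DMSO library 0826.

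Growth and metabolism lists held between 0 and 3 calls each, against 2.53% raised and 0.985% lowered over all genes tested. In lists this small 1 raised gene is already a larger share than that. Of 27 replication genes 2 were raised, the helicase subunits Mcm3 (0.51 ± 0.13) and Mcm6 (0.32 ± 0.08), and 26 had a fold change above 0. Of 25 mitosis genes 0 were called, while 24 had a fold change above 0 with a median of 0.27. Mki67, the proliferation marker, had 0.27 ± 0.08 (adjusted p = 0.0807). Of 26 NRF2 and redox genes 3 were raised: Gstm1 with 62.4 and 107 CPM with DMSO, 52.1 and 94.3 CPM with DKG and 89.8 and 146 CPM with Vc and 0.61 ± 0.09, Gstp1 (0.48 ± 0.09) and the cystine carrier Slc7a11 (0.69 ± 0.17). Slc2a3, a transporter of glucose and of oxidised vitamin C, was the 1 raised gene of 21 glycolysis genes and of 8 vitamin C genes, with 138 and 60.1 CPM with DMSO, 146 and 78.1 CPM with DKG and 307 and 91.9 CPM with Vc and a fold change of 0.82 ± 0.13 (adjusted p = 0.000881). The vitamin C carrier Slc23a2 had 0.26 ± 0.11 (adjusted p = 0.259). Of 22 p53 and senescence genes 0 were called, with a median of -0.20, and of 27 integrated stress genes 1 was raised. Gstm1 kept its call without any 1 of the 6 libraries, and Slc2a3 and Gstp1 lost theirs without the Vc library 0824. Mcm3 and Mcm6 lost theirs without either Vc library or either control of 0824, and Slc7a11 without any 1 library but the DMSO library 0824.

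Markers of other cell types gave these values. Macrophage markers summed to between 12.9 and 14.3 CPM in the 4 controls and to 13.8 and 14.7 CPM with Vc, with 0 of 7 tested called and Fcgr1 at 0 in all 6 libraries. Of 5 trophoblast markers 3 were raised, Eomes (3.31 ± 0.62), Tfap2c (1.65 ± 0.35) and Krt7, while Tpbpa had 0 counts in all 6 libraries and Cdx2 at most 0.192 CPM. Eomes had 0.721 and 0 CPM with DMSO, 0.384 and 0 CPM with DKG and 5.21 and 0.725 CPM with Vc. The trophoblast list of 10 genes summed to between 10.6 and 24.9 CPM in the controls and to 52.1 and 23.2 CPM with Vc. Of 10 endothelial markers Esam was raised (2.33 ± 0.58, with 0.288 and 0.251 CPM with DMSO, 0.384 and 1.03 CPM with DKG and 2.32 and 2.18 CPM with Vc), and Cdh5 and Tie1, which define that cell type, were too low to test. Of 10 neural markers Gfap was raised (1.91 ± 0.40) and Stmn2 lowered (-0.34 ± 0.09). Of 5 extraembryonic endoderm markers the laminin chain Lama1 was raised (0.78 ± 0.20), with Afp and Ttr at 0. Of 4 muscle markers 0 were called, with sums of 19.0 to 28.4 CPM in the controls and 30.7 and 36.5 CPM with Vc, and 0 were called of 2 genes of the early cleavage embryo and of 1 mesoderm marker. Eomes lost its call without the Vc or DKG library 0824 and Tfap2c without the Vc or DMSO library 0824, and Esam, Gfap, Lama1 and Stmn2 lost theirs without 2 or more of the 6 libraries. Of the list kept for RNA quality 2 genes were tested, the nuclear noncoding RNAs Malat1 and Neat1, with 0 called and a median of -0.42. Malat1 had 1591 and 1019 CPM with DMSO, 1058 and 1134 CPM with DKG and 897 and 955 CPM with Vc, a fold change of -0.35 ± 0.14 (adjusted p = 0.208), and Neat1 had -0.49 ± 0.18 (adjusted p = 0.167). Both were lower with Vc than in the controls of the same number. The part of these markers and of RNA quality in the changes above was not tested.

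The 2 media that made up the control group were also compared. DKG against DMSO gave 0 calls (0% of genes tested) in edgeR's test, 1150 genes (8.21%) with an unadjusted p under 0.05, and 1 call in DESeq2. Without the DMSO library 0824 it gave 44 calls. Against DMSO alone Vc raised 214 genes (1.53%) and lowered 69 (0.492%), and against DKG alone it raised 184 (1.31%) and lowered 103 (0.735%), which is 2.02% and 2.05% of genes in all. These contrasts share the Vc libraries. In Gdf3 the DKG libraries stood above the DMSO library of their number in both numbers, with a fold change of 1.36 (adjusted p = 0.621).

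At day 3 the same contrast in Flag cells, which shares no library with that of day 8, called 123 genes raised (0.878%) and 145 lowered (1.03%). Of the 354 genes raised at day 8, 60 (16.9%) were also raised at day 3, which is 48.8% of the day 3 list. Of the 138 lowered, 57 (41.3%) were lowered at day 3, 39.3% of that list. Mdk, Lox and Tnc were called on both days. At day 3 Mdk had a fold change of 2.81 ± 0.32 (adjusted p = 8.47e-05), Lox -1.16 ± 0.12 (adjusted p = 2.62e-05) and Tnc -1.05 ± 0.11 (adjusted p = 2.62e-05). Of the pluripotency list 5 were raised at day 3, among them L1td1 (1.32 ± 0.11), Tfcp2l1 (1.35 ± 0.24), Gdf3 (1.95 ± 0.47) and Slc7a3 (1.77 ± 0.27). Gdf3 had 0.976 and 0.724 CPM with DMSO, 1.20 and 1.16 CPM with DKG and 7.21 and 1.04 CPM with Vc at day 3. There the Vc library 0826 lay within the range of the controls, unlike at day 8. Utf1, Esrrb and Zscan10, raised at day 8, were at or under 0.651 CPM in all 6 libraries of day 3.

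The difference between the 2 days was itself tested. By edgeR's test 1 gene passed, Nat8f3, an N-acetyltransferase-like gene (0.00714% of those tested, with 1051, 7.5%, at an unadjusted p under 0.05). Without the Flag day 8 DMSO or DKG library 0824, the day 3 DMSO library 0824 or the day 3 DKG library 0826, 0 passed. Without the day 8 DMSO library 0826 5 passed, without the day 8 Vc library 0824 or DKG library 0826 3, and without either day 3 Vc library or the day 3 DMSO library 0826 2. At day 8 it had 129 and 89.2 CPM with DMSO, 142 and 88.4 CPM with DKG and 215 and 119 CPM with Vc, and at day 3 it had 29.9 and 9.42 CPM with DMSO, 22.3 and 7.35 CPM with DKG and 117 and 30.4 CPM with Vc. Vc raised it on both days, and the log2 effect at day 8 minus that at day 3 was -1.48 ± 0.21 (adjusted p = 0.0206). Of its 50-base stretches 52.1% occur in another gene, so its level is an estimate. For Gdf3 the day difference was 2.00 ± 0.64 (adjusted p = 0.481), and for Nanog 1.00 ± 0.64 (adjusted p = 0.760).

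In Tet1CD cells at day 8 Vc called 858 genes raised (6.12%) and 473 lowered (3.37%), 9.5% in all. Of the genes raised in Flag cells 157 (44.4%) were raised there too, 18.3% of the longer Tet1CD list, and of those lowered 78 (56.5%) were lowered there, 16.5% of that list. Of the 354 raised, 322 had a fold change above 0 in Tet1CD cells, and 1 was lowered there. One Tet1CD library stood apart: macrophage markers summed to 1485 CPM in the Vc library 0824, against 20.3 in the Vc library 0826 and 11.9 to 28.3 in the Tet1CD controls. Of the 7 tested macrophage markers, 7 were raised by Vc in Tet1CD cells, and their part in the comparison was not tested.

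The Vc effect differed between Flag and Tet1CD cells in 56 genes (0.400%), 27 with a higher and 29 with a lower fold change in Flag cells, and 1403 genes had an unadjusted p under 0.05. Without the Tet1CD Vc library 0824, 20 genes differed. Without the Tet1CD Vc library 0826, which leaves the one rich in macrophage markers, 608 did. The number was 14 without the Flag Vc library 0826, 18 without the Flag Vc library 0824 or the Tet1CD DMSO library 0824, and 23 and 25 without the Flag DKG library 0826 or 0824. It was 24 and 33 without the Tet1CD DKG library 0824 or 0826. Of the 492 genes called in Flag cells, 22 were among the 56, and 5 of these still passed without the Tet1CD Vc library 0824: Dpp4, Slc38a6, Gm38194, Gdf3 and Dmgdh.

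Dpp4, a cell surface peptidase, had 24.4 and 53.3 CPM with DMSO, 29.2 and 62.4 CPM with DKG and 63.5 and 123 CPM with Vc in Flag cells and 56.8 and 104 CPM with DMSO, 63.5 and 102 CPM with DKG and 43.4 and 99.7 CPM with Vc in Tet1CD cells. Vc stood above the controls of the same number in Flag cells and below them in Tet1CD cells. The difference in fold change was 1.41 ± 0.18 (adjusted p = 0.00108). Gdf3 had 19.4 and 15.1 CPM with DMSO, 28.2 and 24.9 CPM with DKG and 56.9 and 55.5 CPM with Vc in Tet1CD cells. Its Tet1CD controls were above the Flag Vc library of 0826, and the difference in fold change was 2.52 ± 0.43 (adjusted p = 0.0103). Slc38a6, an amino acid transporter, rose by 0.79 ± 0.19 in Flag and 2.81 ± 0.18 in Tet1CD cells, a difference of -2.02 ± 0.27 (adjusted p = 0.00156). Of its 50-base stretches 33.6% occur elsewhere. For Utf1 the difference was 1.93 ± 0.54 (adjusted p = 0.186), for Esrrb 2.22 ± 0.86 (adjusted p = 0.373) and for Nanog 0.77 ± 0.44 (adjusted p = 0.595), and none of these passed.

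**Figure D5:**
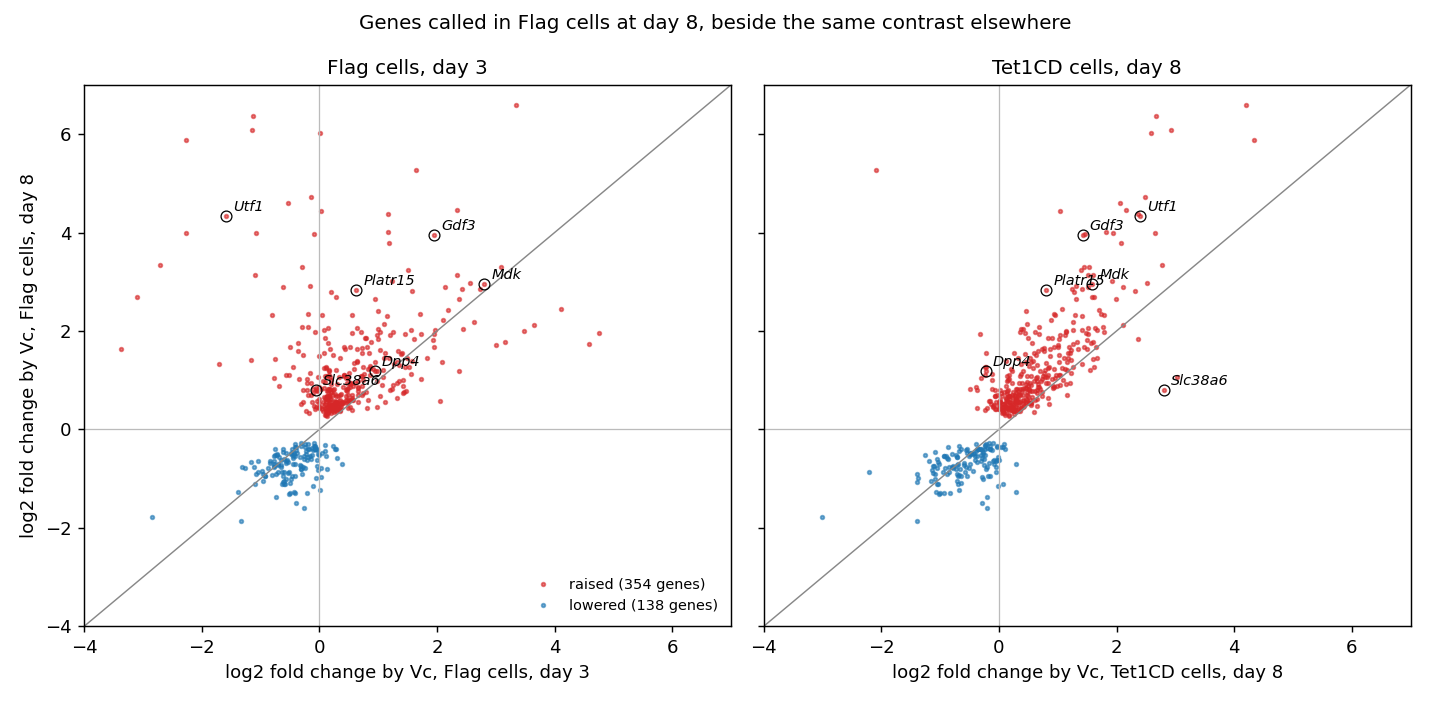
Log2 fold change by Vc in Flag cells at day 8 against that in Flag cells at day 3 (left) and in Tet1CD cells at day 8 (right), for the 354 raised and 138 lowered genes of day 8. The line marks equal changes. Most raised genes lie above it in both panels, and Slc38a6, with 0.79 against 2.81 in Tet1CD cells, lies below it.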

How the data were processed

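RNA was extracted with Trizol and made into libraries with a TruSeq kit, per the labels' protocols. The authors deposited RSEM expected counts and TPM per gene. Bowtie, RSEM and mm10 are named in the submitters' processing notes. Of 29267 gene IDs 28756 matched a mouse gene name. The deposited expected counts were rounded and fitted with edgeR 4.0.16 (R 4.3.3): TMM scaling, filtering by expression, 14015 genes, and 24 reprogramming libraries in 12 groups with the title number as a block within each day. Tests were two-sided. The numbers were taken to pair the libraries because deviations from group means correlated between groups at day 8 in all 15 pairs of groups (r from 0.434 to 0.712). DESeq2 1.42.0, limma 3.58.1 on deposited TPM (log2 of TPM plus 1) and other designs were alternatives. The fitting code was tested on simulated data. Members, gene lists and tests were chosen with earlier results of these data known. Named genes were the 12 steepest called genes per direction changed beyond both controls in both numbers at 5 CPM or more, plus up to 4 called genes a list and its defining genes. Others were named after their values were seen. Coordinates are mm10, from the deposited annotation's build. Floors cover counting error only. Some genes are not reported here. A library whose title and treatment label differ was not used.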

Additional observations from a re-analysis of the deposited data

Results flagged for a closer look

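In 71 named genes the 4 Flag control libraries of day 8 were examined for a library far from the rest, and 1 gene had one: Esam, with 1.031 CPM in the DKG library 0826 against 0.251 to 0.384 CPM in the other 3. Chance gives about 1 such library in 20 genes.

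The Vc effect in Flag cells differed between the days for Nat8f3, with a log2 difference of -1.48 (day 8 minus day 3, edgeR's quasi-likelihood test, adjusted p = 0.0206). It differed between Flag and Tet1CD cells at day 8 for 22 of the 492 called genes. The difference, Flag minus Tet1CD, was positive for 17 raised genes, among them Gdf3 (2.52), Dpp4 (1.41), Platr15 (2.02), Col17a1 (1.62), Dmgdh (1.62), Masp1 (1.17), Mpzl2 (1.12), Gpr179 (1.11), Pcsk1n (0.859), P2rx7 (0.846), Tmprss5 (0.808), Spata13 (0.754), D16Ertd472e (0.72), Emp2 (0.647), Bcat1 (0.538) and Uck2 (0.501). It was negative for 2 raised genes, Slc38a6 (-2.02) and Gm38194 (-1.96), and positive for 3 lowered genes, Ccn4 (0.739), Flrt2 (0.611) and Dpysl3 (0.505). Without the Tet1CD Vc library 0824, which is rich in macrophage markers, 5 of the 22 kept an adjusted p under 0.05, and without the Tet1CD Vc library 0826 21 did, all but Masp1.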

How the results depend on the processing

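The replicate block decided the calls. For the Vc effect in Flag cells at day 8, 492 genes were called with the replicate block within each day, 81 with 1 block term over both days and 6 with no replicate block. The count was 290 with limma on log2 TPM, 318 with the 12 libraries of day 8 alone, 283 against DMSO alone and 287 against DKG alone. It was 487 with DESeq2 size factors, 360 in DESeq2, 710 with no filter on low counts and 459 with the 6 Flag libraries alone. With those 6 libraries 13097 genes passed the filter. Leaving out 1 library gave 101 to 554. For day 8 minus day 3, with 1 gene called, it was 0 with no block, 1 block term or limma on TPM, 14 in DESeq2, 77 with no filter, and 0 to 5 without 1 library. For Flag minus Tet1CD, with 56 called, it was 4 with no block, 4 with 1 block term, 27 with limma on TPM, 31 with the 12 libraries, 319 with no filter, and 14 to 608 without 1 library. For DKG against DMSO, with 0 called, it was 1 in DESeq2, 1 with the 12 libraries, 18 with no filter, and 0 to 44 without 1 library.

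The sign of the fitted value turned for Tet1 and Thy1. Tet1 ranged from -0.57 (without the Vc library 0824) to 2.51 (without the Vc library 0826), although Vc stood above both controls within 0826. Thy1 ranged from -0.020 (without the DMSO library 0824) to 0.25 (without the DMSO library 0826). Neither was called as reported or in the fits with a turned sign, while Tet1 was called in 3 of 16 other settings. The 67 called named genes kept direction and call in 712 of their results under 16 settings, lost the call in 351 and reversed in 0. Cldn6, Dnmt3l, Dppa3, Eomes, Esam, Esrrb, Lefty2, Lin28a and Utf1 had 15 settings each. They were too low to test with the 6 Flag libraries of day 8 alone. The cause of these changes was not tested. Changes of genes under about 1 CPM are limited by depth.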

Other observations

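Some raised genes were neighbours, a pattern seen in the data and not tested. Counting called genes of 1 direction within 200 kb of each other, 27 runs held 64 of the 354 raised genes, and 3 runs held 6 of the 138 lowered ones. A longer list holds more neighbours by position alone, and other genes were not counted, so these numbers cannot be compared. Each run is bounded by its called genes. Some neighbours are related. Of the 50-base stretches, 82.3% of Nat8f7, 49.1% of Gstp2, 33.7% of Gstp1, 32.8% of Ly6c1 and 25.3% of Bhmt occur in another gene, which need not be the neighbour. The levels of these genes are therefore estimates. On chromosome 6 between 122577792 and 122801640 (mm10), 5 of 5 tested genes were raised: Apobec1, an RNA-editing cytidine deaminase (1.36), Gdf3 (3.95), Dppa3, Nanog (1.64) and Slc2a3 (0.82). On chromosome 13 between 93616675 and 93752833, 3 of 3 were raised: the betaine-homocysteine methyltransferase Bhmt (2.23), its relative Bhmt2 (1.56) and dimethylglycine dehydrogenase Dmgdh (2.03). Of these, Bhmt and Dmgdh are enzymes of betaine breakdown. On chromosome 16 between 22891277 and 23029482, 3 of 3 were raised: Ahsg (1.45), Fetub (0.79) and Kng2 (1.55), which encode secreted proteins of the cystatin superfamily known from liver. In other runs of 3 raised genes, uncalled genes lay between them: 3 of 10 tested genes were raised in the run of Susd2, Gstt2 and Chchd10, 3 of 9 in that of Gstp1, Gstp2 and Carns1, 3 of 5 in that of Oas2, Oas1g and Oas1a, 3 of 5 in that of Ly6e, Ly6c1 and Ly6c2, and 3 of 4 in that of Ubxn8, Gsr and Rbpms. Of the lowered genes, Col3a1 and Col5a2 are neighbours on chromosome 1. Apobec1 had 22.1 and 19.6 CPM with DMSO, 24.4 and 13.7 CPM with DKG and 59.3 and 41.3 CPM with Vc, and Bhmt had 1.73 and 1.26 CPM with DMSO, 1.73 and 0.773 CPM with DKG and 8.30 and 4.35 CPM with Vc.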
